A study of Sus scrofa with 6 samples.

Results

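Ion channel subunit genes are described here in pig mesenchymal stem cell cultures, grown from the adherent fraction of marrow at 2 skeletal sites. The members were taken by gene symbol: every probe set with a single platform symbol of the families KCN, SCN, CACNA, CACNB, CACNG, TRPC, TRPM, TRPV, CLCN, P2RX, PIEZO or ANO, with the probe set of highest mean standing for its gene. This gave 126 probe sets for 118 genes, of 10872 named genes and 27558 probe sets in all. PIEZO1 and PIEZO2 had no such probe set, and the members were sorted into 15 families. There were 3 mandibular and 3 tibial cultures, all at passage 0 and 80% confluence, and the donors were female pigs of the American Yorkshire breed, 4 months of age. According to the design text each of 3 pigs gave both marrows, but which numbers belong to which pig is not stated, so it is also unknown which arrays share an animal. Whole marrow was plated without a sort, so other adherent cells could be present in every culture. No gene was altered and no agent was applied in either group.

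Ion channels are membrane pores that open to voltage, ligands, stretch or intracellular calcium and let selected ions pass. In stromal cells, which do not fire action potentials, potassium channels set the resting potential, and calcium-permeable channels feed the calcium signals used in proliferation and differentiation. Most channels combine pore-forming subunits with auxiliary subunits that set their gating and their delivery to the membrane. Channels are also used by cells that share the marrow: macrophages respond to extracellular ATP through P2X receptors, and osteoclasts acidify bone with the help of a lysosomal chloride-proton exchanger.

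Values are log2 levels, so a difference of 1 unit is a doubling of the signal, and each difference is mandibular minus tibial with its standard error (SE) from limma. A level of one gene is not set against that of another, since probe sets differ in how brightly they report. The deposited values carry no detection call. Of the 118 channel genes, 36 had a mean over the arrays under 3.90, the lower quartile of all probe set means, which was 30.5% against 13.3% of all named genes. A level under 3.90 may be background signal, whether or not it is called low below. With 3 arrays a site, precision is limited throughout.

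Not every array resembled its labelled site. The array labelled mandibular 2 had HOXA7 at 8.40 and LHX8 at 3.70, where mandibular 1 and mandibular 3 had HOXA7 at 5.26 and 5.23 and LHX8 at 8.26 and 8.25. The array labelled tibial 3 had HOXA7 at 5.89 and LHX8 at 8.67, where tibial 1 and tibial 2 had HOXA7 at 8.01 and 7.92 and LHX8 at 4.77 and 4.10. HOXA7 is a trunk and limb patterning gene and LHX8 a jaw patterning gene, so both arrays went against their labels in these genes. Site names below are those of the labels, and the results are given with all 6 arrays and again without these 2 arrays. The mean level of 12 stromal markers lay between 9.38 and 9.63 on mandibular and between 9.59 and 9.95 on tibial arrays. Single markers varied more, and 7 of the 12 spanned 1 log2 unit or more. One was VCAM1, at 3.68 on mandibular 3 and 9.52 on tibial 1. Mandibular means were higher for 4 of the 12 and lower for 8. Of 20 macrophage and monocyte markers, 15 were measured and all 15 had a lower mean in mandibular cultures. Their mean level was 4.82, 6.30 and 4.85 on mandibular 1, 2 and 3, against 8.81, 8.19 and 5.39 on tibial 1, 2 and 3. The mean level of 8 cell cycle genes was 7.35, 7.37 and 8.22 on the mandibular arrays, against 5.93, 6.43 and 7.86 on the tibial arrays. The mean level of 10 osteoclast genes was 5.83, 6.49 and 5.93 on the mandibular arrays, against 7.73, 7.32 and 5.98 on the tibial arrays. Of these genes, 3 had higher and 7 lower mandibular means. The lymphocyte and endothelial list means were narrower. The mean of 9 lymphocyte genes lay between 4.34 and 4.49 on mandibular and between 4.39 and 4.63 on tibial arrays. That of 6 endothelial genes lay between 4.95 and 5.0 on mandibular and between 4.92 and 5.40 on tibial arrays. Single genes of these lists varied more. In each list 1 gene spanned 1 log2 unit or more, the lymphocyte gene CD4 with 1.61 and the endothelial gene TEK with 1.21. The endothelial genes PECAM1, at -0.55 (SE 0.16), and KDR, at 0.45 (SE 0.19), were separated between sites in opposite directions. Such separation held for 3.31% of all named genes with tibial and 3.12% with mandibular levels higher.

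**Figure D1:**
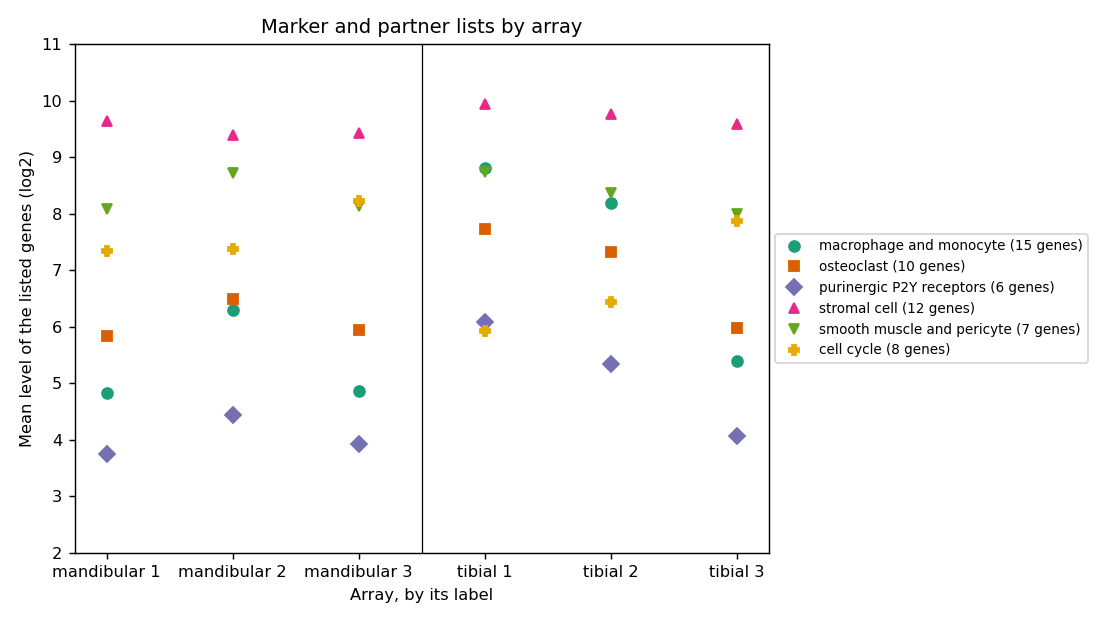
Mean log2 level of the measured genes of 6 lists on each of the 6 arrays, mandibular arrays left of the line and tibial arrays right of it. The macrophage and monocyte mean lay at 8.81 and 8.19 on tibial 1 and tibial 2 and between 4.82 and 6.30 on the other 4 arrays, and the stromal mean stayed between 9.38 and 9.95.

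Between the labelled sites, 0 channel genes were called. With limma and adjustment over all 27558 probe sets, 0 of 118 channel genes had an adjusted p under 0.05 (0% of all 27558 probe sets and 0% of the named genes), the lowest adjusted value being 0.9995. An unadjusted p under 0.05 was found for 2 channel genes, 1.69% of the members, against 2.55% of all named genes and 3.03% of all probe sets. They were ANO1, with higher mandibular levels (1.05% of all named genes), and KCNT2, with higher tibial levels (1.5% of all named genes). Mandibular levels had the higher mean for 61 channel genes and the lower mean for 57, and the median difference was 0.003, against 0.005 over all named genes. The sites were fully separated, with no overlap of their values, for 10 channel genes, 8.47% of the members, where 6.43% of all named genes were so arranged. Of these, 6 were higher in mandibular cultures (3.12% of all named genes) and 4 lower (3.31% of all named genes). Leaving out mandibular 1 gave 4 channel genes at an unadjusted p under 0.05 (3.39%, against 2.64% of all named genes), leaving out mandibular 2 gave 6 (5.08%, against 2.79%), and leaving out tibial 3 gave 11 (9.32%, against 8.69%).

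**Figure D2:**
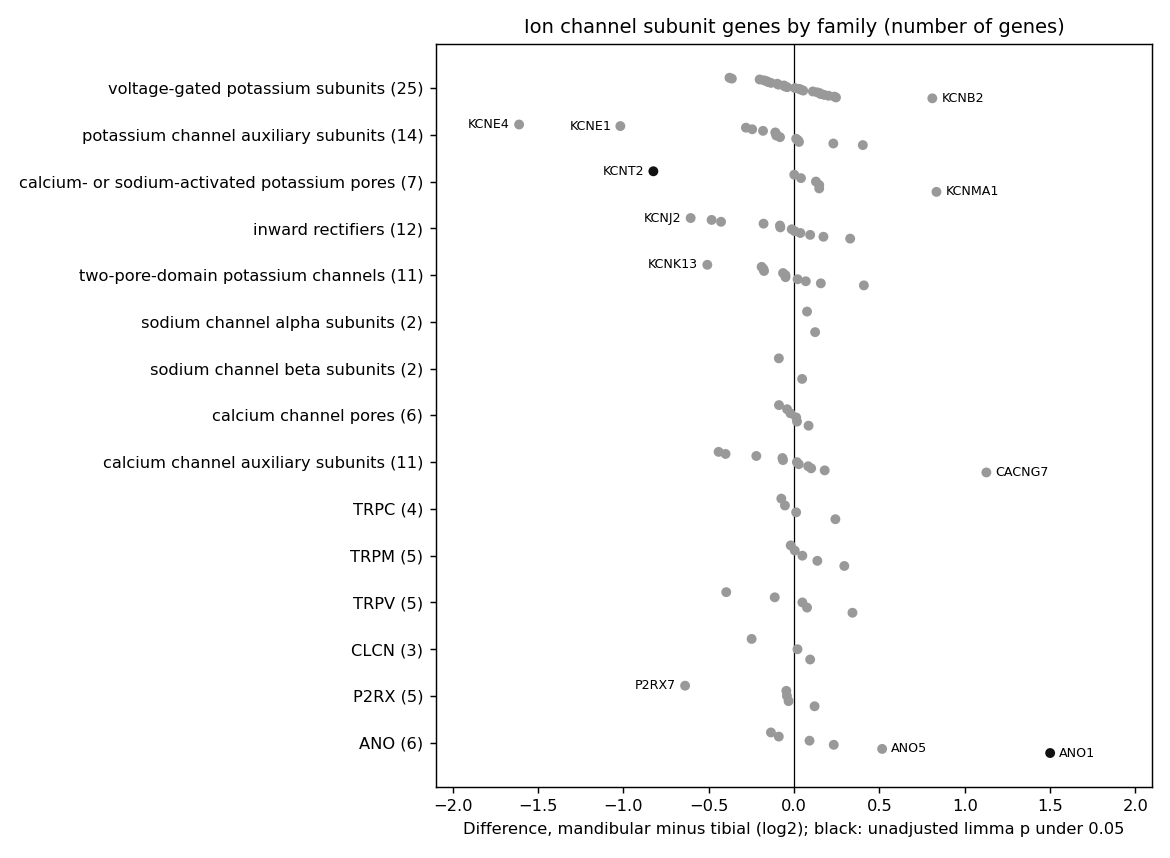
Difference between sites (mandibular minus tibial, log2, x axis) for each of the 118 channel genes, in rows by family with the number of genes in brackets. Black points (ANO1 and KCNT2) had an unadjusted limma p under 0.05, genes more than 0.5 from 0 are named, and most points lie near 0 with a median of 0.003.

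Over the 6 arrays, 24 channel genes spanned 1 log2 unit or more, 20.3% of the members, where 14.9% of all named genes had such a range. The median range was 0.55 for channel genes and 0.51 for all named genes. The widest were KCNE4 with 3.72, KCNMA1 with 3.63, ANO4 with 3.18, KCNIP3 with 3.17 and KCNE1 with 2.95, and the narrowest was the cold sensor TRPM8 with 0.13. Among the 118 genes the highest of the 6 values lay on tibial 1 for 36 (30.5%, against 22.6% of all named genes). The lowest lay on tibial 2 for 35 (29.7%, against 17.1% of all named genes) and on tibial 1 for 9 (7.63%, against 26.8% of all named genes). Among genes spanning 1 log2 unit or more, tibial 1 was highest for 25% of channel and 30.9% of all named genes. In these genes the lowest value lay on tibial 2 for 16.7% against 14.05%, and on tibial 1 for 16.7% against 28.8%. The median of the gene means was 4.89 for channel and 6.57 for all named genes, and the part of level was not tested.

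**Figure D3:**
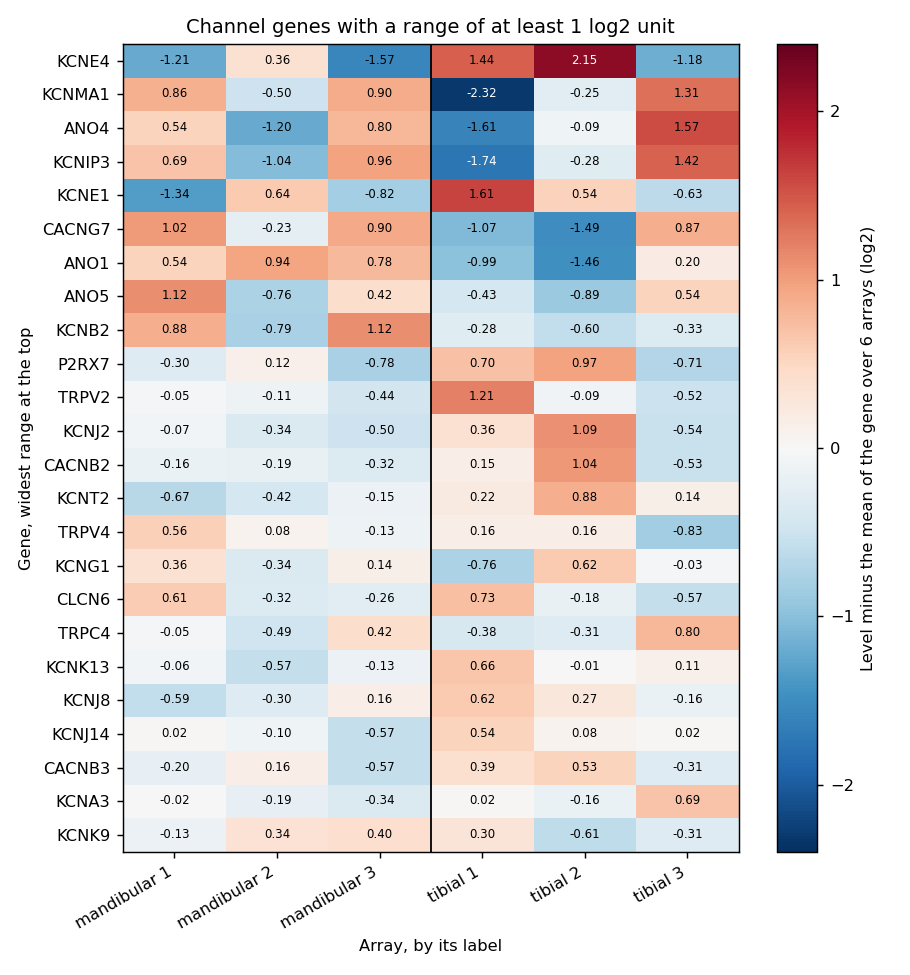
Level on each array minus the mean of the gene over the 6 arrays (log2, colour and printed value) for the 24 channel genes that span 1 log2 unit or more, widest at the top, mandibular arrays left of the line. For KCNE4, KCNMA1, KCNIP3, KCNE1 and CACNG7 the array labelled tibial 3 lies on the same side of the mean as mandibular 1 and mandibular 3.

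KCNJ8 encodes Kir6.1, the pore of an ATP-sensitive potassium channel known from vascular smooth muscle and pericytes. Its level was 4.89, 5.17 and 5.64 on mandibular 1, 2 and 3, against 6.10, 5.74 and 5.31 on tibial 1, 2 and 3. Mandibular 3 lay above tibial 3, so the sites overlapped. The mean was 5.23 ± 0.38 in mandibular and 5.72 ± 0.39 in tibial cultures (SD, n = 3 each), a difference of -0.48 (SE 0.26, limma adjusted p = 0.9995) with a 95% interval from -1.11 to 0.14. In single omissions the difference lay between -0.69 and -0.29, and without mandibular 2 and tibial 3 it was -0.66 (SE 0.30). The partner gene ABCC9, the sulfonylurea receptor that completes the Kir6.1 channel in pericytes, had levels of 3.08, 3.91 and 3.21 on mandibular arrays, against 5.57, 4.29 and 2.71 on tibial arrays. Those on mandibular 1, mandibular 3 and tibial 3 were low. The highest ABCC9 and KCNJ8 levels were both on tibial 1, while their lowest levels were on different arrays, tibial 3 for ABCC9 and mandibular 1 for KCNJ8. KCNJ11, the other ATP-sensitive pore, had means of 5.03 in mandibular and 5.21 in tibial cultures, and the other receptor gene, ABCC8, had 4.30 and 4.23. The pericyte and smooth muscle list, which holds ABCC9, had mean levels of 8.08, 8.71 and 8.14 on mandibular and 8.73, 8.36 and 8.0 on tibial arrays, for 7 measured genes.

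KCNJ2 encodes Kir2.1, a strong inward rectifier that stabilises the resting potential and whose human mutations include jaw and digit anomalies among their signs. It measured 6.97, 6.69 and 6.54 on mandibular arrays, against 7.39, 8.12 and 6.5 on tibial arrays. Tibial 1 and tibial 2 lay above every mandibular value and tibial 3 below every one, and the difference was -0.61 (SE 0.39). It lay between -1.03 without tibial 3 and -0.21 without tibial 2, and was -1.01 without mandibular 2 and tibial 3. Of the 12 inward rectifier genes, 5 had higher and 7 lower mandibular means, with a median difference of -0.05 and 0 called. KCNJ14, named after its values were seen, had the third range of 1 or more in the family, 1.11, after KCNJ2 with 1.62 and KCNJ8 with 1.21.

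KCNMA1 encodes the pore of the BK channel, which opens to calcium and voltage and carries the large potassium current known from cultured marrow stromal cells. Its level was 8.79, 7.42 and 8.82 on mandibular 1, 2 and 3, against 5.61, 7.68 and 9.24 on tibial 1, 2 and 3. The highest and the lowest of the 6 values were thus both tibial, 3.63 log2 units or 12.4-fold apart. The site means were 8.34 ± 0.80 in mandibular and 7.51 ± 1.82 in tibial cultures (SD, n = 3 each), with a difference of 0.83 (SE 0.90). Without tibial 1 the difference was -0.12, without tibial 3 it was 1.7, and without mandibular 2 and tibial 3 it was 2.16 (SE 0.64, limma adjusted p = 0.31). The BK accessory subunits varied less: KCNMB1, KCNMB2 and KCNMB4 had differences of -0.11, -0.08 and 0.01. Tibial 1, which had the lowest KCNMA1 level, also had the highest macrophage list mean and the lowest cell cycle list mean, and the part of either in this pattern was not tested. Bulk levels cannot tell fewer cells of a type from less RNA per cell, here or for any gene below.

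KCNT2, a sodium-activated potassium channel, measured 4.42, 4.67 and 4.94 on mandibular arrays, against 5.31, 5.97 and 5.23 on tibial arrays. Every tibial value exceeded every mandibular one. The mean was 4.68 ± 0.26 in mandibular and 5.5 ± 0.41 in tibial cultures (SD, n = 3 each), a difference of -0.82 (SE 0.24), 1.77-fold lower in mandibular cultures. Its limma adjusted p was 0.9995, with 0.0113 before adjustment. The difference lay between -0.96 and -0.59 in single omissions and was -0.96 (SE 0.30) without mandibular 2 and tibial 3. KCNN4, the intermediate-conductance calcium-activated channel also found in macrophages and lymphocytes, measured 5.13 in mandibular and 4.98 in tibial cultures, a difference of 0.15 (SE 0.16). Among the 7 calcium- or sodium-activated pore genes, KCNT2 alone had a lower mandibular mean.

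The auxiliary potassium subunits held the widest spread of all channel genes. KCNE4, a single-span subunit that damps several voltage-gated potassium channels, measured 5.15, 6.72 and 4.79 on mandibular arrays, against 7.80, 8.52 and 5.19 on tibial arrays. Mandibular 1, mandibular 3 and tibial 3 had the lowest values, tibial 1 and tibial 2 the highest, and mandibular 2 lay between them. The difference was -1.61 (SE 0.91), or 3.06-fold, and lay between -2.60 and -0.94 in single omissions. KCNE1, which slows the cardiac delayed rectifier, measured 3.47, 5.44 and 3.98 on mandibular arrays, against 6.42, 5.35 and 4.17 on tibial arrays, a difference of -1.02 (SE 0.69) that lay between -1.59 without mandibular 2 or tibial 3 and -0.47 without tibial 1. Here mandibular 2 stood with tibial 1 and tibial 2. KCNE1 and KCNE4 were highest on the same 3 arrays, tibial 1, tibial 2 and mandibular 2. The macrophage list mean was also highest on these arrays, at 8.81, 8.19 and 6.30. So was the patterning gene HOXA7, at 8.01, 7.92 and 8.40. The part of either in the KCNE1 and KCNE4 levels was not tested.

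KCNIP3, a calcium-binding protein that attaches to Kv4 channels and also acts as a transcriptional repressor, was arranged the other way. It measured 7.27, 5.54 and 7.54 on mandibular arrays, against 4.84, 6.30 and 8.0 on tibial arrays. The difference of 0.40 (SE 0.87) turned to -0.37 without tibial 1 and reached 1.21 without tibial 3. Its fellow members KCNIP1 and KCNIP2 had means of 2.45 and 3.36 in mandibular cultures, against 2.74 and 3.34 in tibial cultures, all low. KCNE3, which opens KCNQ1 channels in epithelia, had separated values, with 5.93 ± 0.06 in mandibular and 6.18 ± 0.14 in tibial cultures (SD, n = 3 each), a difference of -0.25 (SE 0.12). Of the 14 auxiliary potassium subunit genes, 5 had higher and 9 lower mandibular means and none was called.

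**Figure D4:**
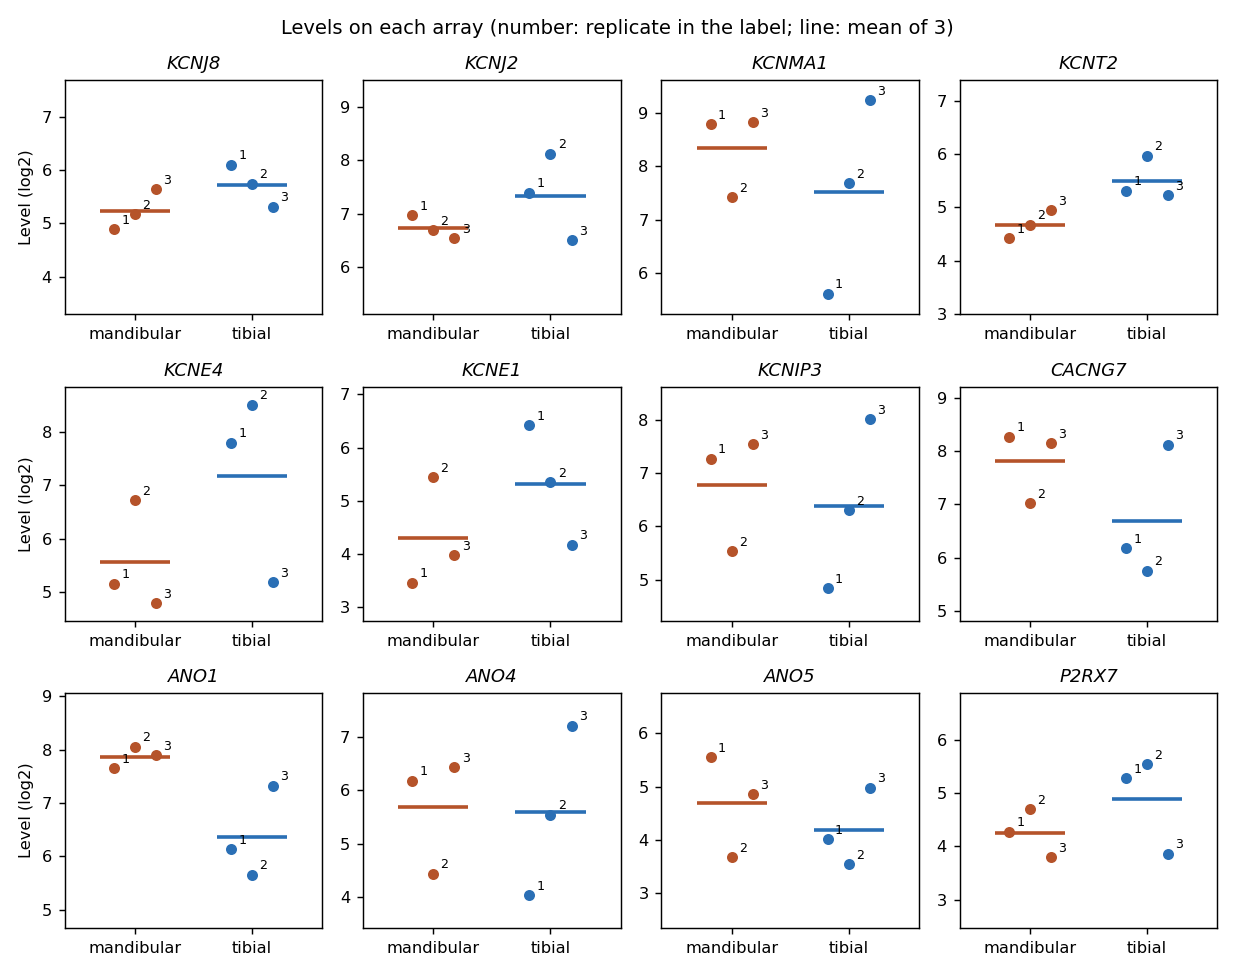
Log2 level (y axis, equal span in each panel) of 12 channel genes on the 3 mandibular arrays (left in each panel) and 3 tibial arrays (right), with the replicate number of the label beside each point and a line at the mean of 3. Only ANO1 and KCNT2 of these 12 show no overlap between the sites, and tibial 3 lies with mandibular 1 and mandibular 3 for KCNE4, KCNIP3, CACNG7, ANO4 and ANO5.

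Voltage-gated potassium subunits made up the largest family, with 25 genes, and differed little. Mandibular means were higher for 13 and lower for 12, with a median difference of 0.005. KCNB2, a delayed rectifier of neurons and endocrine cells, had the widest range, with 4.17, 2.5 and 4.41 on mandibular arrays, against 3.01, 2.69 and 2.96 on tibial arrays. Mandibular 1 and mandibular 3 stood above the other 4 arrays, which lay at low levels, and the difference was 0.81 (SE 0.48), between 0.45 without mandibular 3 and 1.41 without mandibular 2. KCNG1, a silent subunit that modifies the gating of Kv2 pores, measured 6.30, 5.59 and 6.07 on mandibular arrays, against 5.17, 6.56 and 5.91 on tibial arrays, a difference of 0.11 (SE 0.36) with full overlap. KCNQ3, an M-current subunit, had separated values at 3.91 in mandibular and 3.67 in tibial cultures, low on every array but mandibular 1. KCNA3, a channel of lymphocytes and macrophages named after its values were seen, measured 4.10 in mandibular and 4.47 in tibial cultures, with its highest value on tibial 3.

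Among the 11 two-pore-domain channels, which carry background potassium current, 4 had higher and 7 lower mandibular means. KCNK13, known from microglia, the macrophages of the brain, measured 5.74, 5.23 and 5.67 on mandibular arrays, against 6.46, 5.79 and 5.91 on tibial arrays. The sites did not overlap, and the difference was -0.51 (SE 0.23), between -0.64 and -0.30 in single omissions. KCNK15 was also separated, with a difference of -0.18 (SE 0.12). KCNK9, named after its values were seen, had a range of 1.02, with its lowest value on tibial 2. The member listed as KCNK17 carries an Entrez number that RefSeq gives to KCNK16, and it differed by 0.07.

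The anoctamins held both a separated gene and some of the widest ranges. ANO1 encodes a calcium-activated chloride channel of secretory epithelia and pacemaker cells. Its level was 7.66, 8.06 and 7.90 on mandibular 1, 2 and 3, against 6.13, 5.66 and 7.33 on tibial 1, 2 and 3. Every mandibular value exceeded every tibial one, mandibular 2 was the highest of all, and tibial 3 lay closest to the mandibular values. The means were 7.87 ± 0.20 in mandibular and 6.37 ± 0.86 in tibial cultures (SD, n = 3 each), a difference of 1.5 (SE 0.41), or 2.83-fold, with a 95% interval from 0.53 to 2.47. The unadjusted limma p was 0.0085 and the adjusted p 0.9995. In single omissions the difference lay between 1.14 without tibial 2 and 1.98 without tibial 3, where the adjusted p was 0.072 in limma.

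ANO5, whose human mutations cause a bone disorder of the jaw and long bones as well as muscular dystrophy, measured 5.55, 3.67 and 4.86 on mandibular arrays, against 4.01, 3.55 and 4.98 on tibial arrays. Mandibular 1, mandibular 3 and tibial 3 were the higher arrays. The sites overlapped, with a difference of 0.52 (SE 0.55) that lay between 0.09 and 1.03 in single omissions. ANO4 measured 6.18, 4.44 and 6.44 on mandibular arrays, against 4.03, 5.55 and 7.21 on tibial arrays, with a difference of 0.09 (SE 0.87) that changed sign without tibial 1 (-0.69), mandibular 3 (-0.29) or mandibular 1 (-0.16). Its highest value, on tibial 3, was 9.05-fold its lowest, on tibial 1. ANO6, a lipid scramblase and channel used in bone mineral deposition in mice, varied by 0.39 over the arrays. Its values were separated, with 8.40 ± 0.08 in mandibular and 8.17 ± 0.07 in tibial cultures (SD, n = 3 each), a difference of 0.23 (SE 0.11). ANO3, at low levels, and ANO10 differed by -0.09 and -0.14.

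The 6 calcium channel pore genes had differences between -0.09 and 0.08, and the auxiliary subunit genes varied more. CACNA1C, the L-type pore of heart and smooth muscle, had the widest range of them, with 6.15, 5.17 and 5.41 on mandibular arrays, against 5.40, 5.84 and 5.56 on tibial arrays. The sites overlapped in full, and the difference was -0.02 (SE 0.27). CACNG7, a transmembrane protein that regulates glutamate receptors in the brain as well as calcium channels, measured 8.26, 7.02 and 8.15 on mandibular arrays, against 6.18, 5.75 and 8.12 on tibial arrays. Mandibular 1, mandibular 3 and tibial 3 lay close together and above the remaining arrays. The difference was 1.13 (SE 0.65), or 2.18-fold, and lay between 0.66 without tibial 2 and 1.84 without tibial 3. CACNB2, a cytoplasmic beta subunit, stood out on tibial 2 at 5.08, with 3.88, 3.85 and 3.72 on mandibular arrays, against 4.19 and 3.51 on tibial 1 and tibial 3. Its difference of -0.44 (SE 0.37) shrank to -0.03 without tibial 2. The beta subunit gene CACNB3, named after its values were seen, measured 8.62 in mandibular and 9.02 in tibial cultures, a difference of -0.40.

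ATP-gated P2X receptors were led by P2RX7, which opens at high extracellular ATP and triggers inflammasome signalling in macrophages. It measured 4.27, 4.70 and 3.80 on mandibular arrays, against 5.28, 5.54 and 3.86 on tibial arrays. Tibial 1 and tibial 2 were high and tibial 3 lay among the mandibular values, and the difference was -0.64 (SE 0.46), between -1.15 without tibial 3 and -0.31 without tibial 2. Tibial 1 and tibial 2 also led in the macrophage list mean, at 8.81 and 8.19, and the part of these cells was not tested. P2RX4, another P2X receptor of macrophages and many other cells, varied by only 0.22, with 7.58 ± 0.10 in mandibular and 7.61 ± 0.09 in tibial cultures (SD, n = 3 each). All 6 measured P2Y receptors, which are G protein-coupled nucleotide receptors, had lower mandibular means, with a median difference of -0.49 and 0 called. P2RY12 measured 2.74, 5.41 and 2.93 on mandibular arrays, against 9.66, 8.43 and 3.41 on tibial arrays. P2RY13 measured 2.15, 2.42 and 2.26 on mandibular arrays, against 5.44, 4.75 and 2.83 on tibial arrays. Its values did not overlap (3.31% of all named genes in this direction), and it was not called in limma. On mandibular 1, mandibular 3 and tibial 3 the levels of both genes were low, as was P2RY13 on mandibular 2. P2RY12 and P2RY13 are known from platelets, microglia or other myeloid cells. The other P2Y genes were arranged in different ways. P2RY14 measured 3.68, 5.04 and 4.07 on mandibular arrays, against 5.50, 4.59 and 4.25 on tibial arrays. P2RY6 measured 4.65, 4.90 and 4.78 on mandibular arrays, against 4.98, 4.81 and 5.18 on tibial arrays. The highest P2RY1 level lay on tibial 1 and the highest P2RY4 level on mandibular 3.

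Of the TRPC, TRPM and TRPV members, TRPV2 and TRPV4 had the widest ranges, at 1.73 and 1.40. TRPV2, a cation channel of macrophages and other cells that responds to membrane stretch and heat, stood out on tibial 1 at 7.02, with values of 5.76, 5.69 and 5.37 on mandibular arrays, against 5.71 and 5.28 on tibial 2 and tibial 3. Its difference of -0.40 (SE 0.43) turned to 0.11 without tibial 1. TRPV4, an osmotic and mechanical sensor whose human mutations cause skeletal dysplasias, measured 6.21, 5.73 and 5.52 on mandibular arrays, against 5.81, 5.80 and 4.81 on tibial arrays. Tibial 3 was the lowest array, and without it the difference of 0.34 (SE 0.32) was 0.01. TRPM7, a channel and kinase that takes up magnesium, had narrow and separated values, with 7.89 ± 0.05 in mandibular and 7.76 ± 0.05 in tibial cultures (SD, n = 3 each), a difference of 0.14 (SE 0.10). TRPM6, its relative in magnesium uptake of the kidney and gut, had means of 4.44 and 4.14, a difference of 0.29 (SE 0.15). TRPC1, a subunit of receptor-operated channels, differed by -0.05 (SE 0.14). TRPC4, of the same family, was highest on tibial 3 and mandibular 3, at 4.84 and 4.46, and between 3.55 and 3.99 on the other arrays. TRPC7 was separated at 2.68 in mandibular and 2.44 in tibial cultures, both low.

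Chloride channels and exchangers of the CLCN family had 3 measured members. CLCN7, the lysosomal exchanger that osteoclasts need to acidify bone, measured 7.71, 7.76 and 7.39 on mandibular arrays, against 8.29, 7.79 and 7.52 on tibial arrays, a difference of -0.25 (SE 0.22) that shrank to -0.04 without tibial 1. Tibial 1 also had the highest osteoclast list mean, 7.73, against 5.83 to 6.49 on mandibular arrays and 7.32 and 5.98 on tibial 2 and tibial 3. The part of osteoclasts in the CLCN7 level was not tested. CLCN6, a late endosomal exchanger, was high on mandibular 1 and tibial 1, at 7.75 and 7.86, and between 6.56 and 6.95 elsewhere. CLCN3, of endosomes, differed by 0.09 (SE 0.15). Both measured sodium channel alpha subunit genes were low: SCN7A measured 2.2 in mandibular and 2.12 in tibial cultures, and SCN8A 3.61 in mandibular and 3.49 in tibial cultures. Of the beta subunit genes, SCN2B measured 5.0 in mandibular and 5.09 in tibial cultures, and SCN4B 4.35 in mandibular and 4.30 in tibial cultures.

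Among channels and partners outside these families, TRPA1, P2RY13, CLCA2 and GJC1 had an unadjusted p under 0.05 in limma, and none was called. They were 1 of 10 other cation channel, 1 of 6 P2Y, 1 of 16 other anion channel and 1 of 6 gap junction genes. The sulfonylurea receptor, store-operated entry, intracellular release and sodium pump lists held none. Over all named genes the share was 2.55%. The irritant sensor TRPA1 measured 6.79, 5.53 and 6.25 on mandibular arrays, against 4.47, 4.07 and 4.83 on tibial arrays, a difference of 1.73 (SE 0.34). Its values did not overlap (3.12% of all named genes in this direction). In the store-operated calcium entry list of 5 genes, the sensor STIM1 differed by -0.34 (SE 0.17) and the pores ORAI1, ORAI2 and ORAI3 by -0.22, 0.15 and -0.14. In the list of intracellular release channels, 2 of 10 genes had higher and 8 lower mandibular means, among them the lysosomal channels TPCN2 at -0.37 (SE 0.16) and TPCN1 at -0.23, and the inositol trisphosphate receptors ITPR2 at -0.27 and ITPR3 at 0.37. Of 16 other anion channel genes, 7 were higher and 9 lower. CLCA2, low on mandibular arrays and tibial 3, differed by -0.44 (SE 0.16) and TTYH2 by -0.63 (SE 0.27). LRRC8C, a subunit of volume-regulated channels, differed by 0.51 (SE 0.31) and CFTR, at low levels, by -0.22. Of 10 other cation channel genes, 6 were higher and 4 lower, with TMEM63C, HCN3 and ASIC2 at 0.41, -0.21 and -0.10. Of 6 gap junction and pannexin genes, 4 were higher and 2 lower, with GJC1 at 0.74 (SE 0.29), GJA1, the main connexin of bone cells, at -0.14, and PANX1 and PANX2 at -0.10 and 0.13. The sodium pump subunits ATP1B1, ATP1B2 and ATP1B3 differed by 0.26, 0.12 and -0.001.

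Without the arrays labelled mandibular 2 and tibial 3, 3 channel genes passed the adjusted threshold in limma. This fit compared 2 mandibular with 2 tibial arrays, and the 2 omitted arrays were chosen because their patterning genes went against the labels in these data. It called 3 of 118 channel genes, 2.54% of the members, where 1.16% of all named genes and 0.708% of all probe sets were called. KCNE4 was lower in mandibular cultures, with a difference of -3.18 (SE 0.29, adjusted p = 0.0175), CACNG7 was higher by 2.24 (SE 0.21, adjusted p = 0.0190) and ANO1 was higher by 1.88 (SE 0.23, adjusted p = 0.0398). KCNB2 followed with 1.44 (SE 0.20, adjusted p = 0.058), P2RX7 with -1.38 (SE 0.23, adjusted p = 0.092), KCNE1 with -2.16 (SE 0.39, adjusted p = 0.112) and ANO5 with 1.43 (SE 0.30, adjusted p = 0.158), none of them called. At an unadjusted p under 0.05 there were 17 channel genes, 14.4% of the members, where 11.1% of all named genes and 9.5% of all probe sets passed. Mandibular levels were higher for 9 of the 17 (5% of all named genes) and lower for 8 (6.14% of all named genes). The macrophage list mean was 4.82 and 4.85 on the 2 mandibular arrays that remained, against 8.81 and 8.19 on the 2 tibial arrays, and the cell cycle list mean was 7.35 and 8.22 against 5.93 and 6.43. The part of either in the 3 calls was not tested.

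**Figure D5:**
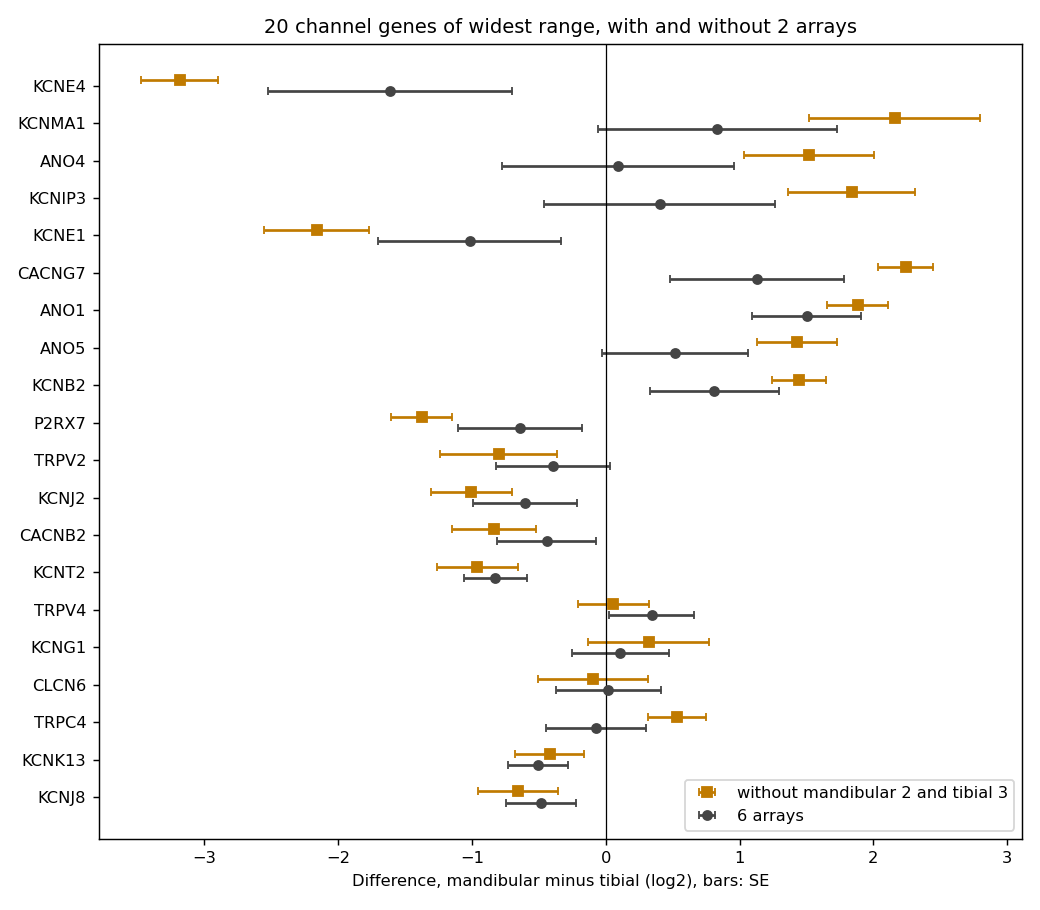
Difference between sites (mandibular minus tibial, log2, with SE bars) for the 20 channel genes of widest range, from all 6 arrays (circles) and without the arrays labelled mandibular 2 and tibial 3 (squares). KCNE4, CACNG7 and ANO1 passed the adjusted threshold without the 2 arrays and not with all 6, KCNMA1 moved to 2.16, against 0.83 with all 6, and KCNJ8 and KCNK13 changed little.

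The genes with more than 1 probe set gave a check within the arrays. Of 8 such genes, KCNAB3 and KCNS2 had a pair of probe sets with identical values. The 2 KCNK4 probe sets differed by 0.02 and -0.29 between sites, those of KCNQ5 by 0.20 and 0.10, those of KCNN4 by 0.15 and 0.00 and those of SCN8A by 0.12 and 0.16. The P2RX5 pair both gave 0.12, and the KCNK5 pair gave -0.05 and -0.28.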

How the data were processed

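RNA of 6 cultures (3 mandibular, 3 tibial) was measured on Affymetrix porcine arrays. The deposited log2 levels were made by the authors with Expression Console, Transcriptome Analysis Console 3.0 and the RMA method, per the submitters' processing notes. RMA equalises array distributions, so levels are relative. Neither settings nor a genome build are named there, so no coordinates are printed, and no sequences were used here.

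Symbols of the members are those of the platform annotation: 13157 probe sets had 1 symbol, 523 several and 13878 none. The 10872 named genes, and with them the partner and marker lists, came from the probe sets with 1 symbol. They took the RefSeq symbol of the Entrez number where one was given, and otherwise the platform symbol. Placeholder names, such as LOC numbers, were left out of the named genes. Differences (mandibular minus tibial) were fitted by limma 3.58.1 under R 4.3.3 (lmFit, eBayes) and tested two-sided and unpaired, with Benjamini-Hochberg adjustment over 27558 probe sets at 0.05. The procedure was tested on simulated data with independent arrays. Shared pigs and arrays that go against their labels were not simulated. Arrays from the same pig are not independent, which the limma test does not take into account.

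The members and lists were chosen with earlier results of these data known. Named are KCNJ8, up to 10 separated members in each direction by smallest p, the 20 of widest range, the widest of each family, 16 measured of 20 listed skeletal and marrow channels, members whose probe sets disagree, and up to 4 genes per partner list. Others are marked as named after their values were seen, or are given as fellow members of a family. Alternatives were the replicate block, single omissions, other moderation, centring, filters on low levels, array weights and averaged probe sets. The omission of mandibular 2 and tibial 3 was added after seeing the data.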

Additional observations from a re-analysis of the deposited data

How the results depend on the processing

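Whether equal labelled numbers share a pig could not be told from the values. Deviations from the site means correlated at -0.03, 0.21 and 0.47 for numbers 1, 2 and 3. For arrays of unlike numbers the correlations lay between -0.49 and 0.36. With the replicate number as a block, 8 channel genes (6.78%, against 5.56% of all named genes) had an unadjusted p under 0.05, where 2 (1.69%, against 2.55%) had one without it, and no call changed. That count was also 4 with no moderation (3.39%, against 2.71%), 1 of 29 with the filter at the median (3.45%, against 1.89%) and 5 with array weights (4.24%, against 3.75%). In single omissions it lay between 3 and 11, where the share of all named genes lay between 1.13% and 8.69%, and it was 17 (14.4%, against 11.1%) without mandibular 2 and tibial 3 (the setting added after seeing the data). Called probe sets numbered 0 with all arrays, 1 without tibial 1, 2 without tibial 3 and 195 without mandibular 2 and tibial 3. Called channel genes numbered 0 in every single omission and 3 without those 2 arrays. Array weights turned ANO4 to -0.015 and KCNG1 to -0.075, and centring turned CACNA1C to 0.0038. Of 36 named channel genes, 13 changed sign in at least 1 single omission, and their differences, none of them called, ranged as follows over the omissions, with the omission of both arrays included. ANO4 ranged between -0.69 and 1.52, CACNA1C between -0.31 and 0.18, CLCN3 between -0.079 and 0.199, and CLCN6 between -0.28 and 0.39. KCNG1 ranged between -0.24 and 0.45, KCNIP3 between -0.37 and 1.84, KCNMA1 between -0.12 and 2.16, and P2RX4 between -0.083 and 0.018. SCN2B ranged between -0.24 and 0.15, SCN7A between -0.017 and 0.19, TRPC1 between -0.14 and 0.051, TRPC4 between -0.30 and 0.53, and TRPV2 between -0.80 and 0.11. Without both arrays CACNA1C was 0.16, CLCN3 -0.079, CLCN6 -0.10 and TRPC4 0.53, each opposite in sign to the value with all 6. The median difference of the channel genes moved by less than 0.110 log2 units in every setting. That bound is the SD between arrays of a site in their median channel level, pooled over the sites. It is not an uncertainty of the median difference. The cause of these changes was not tested. Low signal limits 36 of the 118 genes, and 3 arrays a site limit all of them.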
